A study of Homo sapiens with 14 samples.

Results

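The DNA replication machinery was described here through 50 genes whose products mark origins, load and fire the replicative helicase, copy both strands and finish the daughter strands. Members were chosen by name as genes of known replication roles, with earlier results of these data known, and were measured by every probe set annotated with exactly 1 of these genes. All 50 genes had at least 1 such probe set, 71 in all, out of 11963 genes and 19070 probe sets of that kind. RS4;11, an established human line of precursor B-cell acute lymphoblastic leukemia with a rearranged KMT2A gene, had been kept in hormone-depleted serum for 48 h in every group. The 5 runs over 4 days gave 14 arrays: 4 of untreated cells, 5 of cells after 8 h and 5 after 24 h of the synthetic glucocorticoid dexamethasone at 10 nM. No genetic change was made in any group, the line is one leukemia in culture, and no untreated cells were kept for 8 h or 24 h, so dexamethasone and time in culture cannot be told apart. Whether replicates were separate cultures is not in the labels, so the p-values below rest on array-to-array spread, which may be technical. Replicative DNA synthesis is confined to S phase, and in bulk RNA fewer cells in that phase and less RNA per cell cannot be told apart.

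Replication starts at origins held by the origin recognition complex. In G1 phase CDC6 and CDT1 load a ring of MCM2 to MCM7 there, a step called licensing, and geminin, the product of GMNN, blocks it once S phase has begun. The kinase CDC7 with its activator DBF4, together with MCM10, then helps CDC45 and the GINS complex join the ring to form the active helicase, after which polymerase alpha lays primers, polymerases delta and epsilon extend them, and PCNA clamps loaded by replication factor C hold the polymerases on DNA. Transcription of many of these genes is under E2F factors in cycling cells, and glucocorticoids are known for arresting lymphoid leukemia cells in G1.

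The arrays carried the B-lineage markers that the label implies. Of 8 measured precursor B-cell markers, 6 lay above the median gene in untreated cells, among them VPREB1, CD79A and PAX5, while DNTT and CD34 did not. The mean level of these 8 markers was 8.92 to 8.96 in untreated cells, 8.63 to 8.77 after 8 h and 8.84 to 9.05 after 24 h on the log2 scale. Markers of T and NK cells (1 of 7 above the median gene, NKG7), of monocytes and granulocytes (0 of 7) and of erythroid cells and platelets (0 of 5) had mean levels that overlapped between all groups. Array medians over all probe sets ran from 6.03 to 6.05 in untreated cells, from 6.03 to 6.09 after 8 h and from 6.07 to 6.11 after 24 h.

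The promoters of the genes on which the results turn are shown first, since the letters bound by E2F and NF-Y, both known regulators of replication genes, stand in some of them and not in others. Each line gives 160 bases just before the most upstream listed start of that gene, 5′ to 3′ on the gene's strand, from RefSeq on GRCh38.p14. Capitals mark E2F letters (TTTCGCGC, TTTGGCGC, TTTCCCGC or TTTGCCGC) and NF-Y letters (CCAAT), each on either strand. GINS2, DTL, MCM6 and PCNA stand for genes with E2F letters and a large fall, MCM10 for a large fall without them, POLA2 for a small fall with them, and ORC4 for a gene with neither and no call.
GINS2: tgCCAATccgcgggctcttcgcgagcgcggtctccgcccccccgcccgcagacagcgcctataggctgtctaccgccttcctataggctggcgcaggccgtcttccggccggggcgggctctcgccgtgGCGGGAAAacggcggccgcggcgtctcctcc
DTL: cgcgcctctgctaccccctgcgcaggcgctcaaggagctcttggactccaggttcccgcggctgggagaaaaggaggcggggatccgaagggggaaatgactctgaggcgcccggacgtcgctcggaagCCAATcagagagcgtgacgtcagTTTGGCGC
MCM6: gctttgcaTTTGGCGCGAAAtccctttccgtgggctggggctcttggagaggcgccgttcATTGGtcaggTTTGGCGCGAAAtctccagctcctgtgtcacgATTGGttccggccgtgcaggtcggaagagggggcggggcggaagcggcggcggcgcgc
PCNA: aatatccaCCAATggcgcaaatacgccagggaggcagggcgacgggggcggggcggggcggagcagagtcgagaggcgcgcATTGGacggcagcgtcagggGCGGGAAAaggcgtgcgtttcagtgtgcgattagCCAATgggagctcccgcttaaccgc
MCM10: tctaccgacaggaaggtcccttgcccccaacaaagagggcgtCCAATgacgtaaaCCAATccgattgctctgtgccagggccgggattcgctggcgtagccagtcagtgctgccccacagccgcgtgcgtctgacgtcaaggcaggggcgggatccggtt
POLA2: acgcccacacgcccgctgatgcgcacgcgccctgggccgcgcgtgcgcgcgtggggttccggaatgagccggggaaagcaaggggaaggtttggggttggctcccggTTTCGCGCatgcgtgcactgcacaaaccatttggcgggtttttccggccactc
ORC4: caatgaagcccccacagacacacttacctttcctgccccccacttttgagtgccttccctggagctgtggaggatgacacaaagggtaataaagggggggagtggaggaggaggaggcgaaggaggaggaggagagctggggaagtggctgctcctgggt
The windows lie at chr16:85688955-85689114 (minus strand) for GINS2, chr1:212035588-212035747 (plus) for DTL, chr2:135876444-135876603 (minus) for MCM6, chr20:5126623-5126782 (minus) for PCNA, chr10:13161398-13161557 (plus) for MCM10, chr11:65261802-65261961 (plus) for POLA2 and chr2:148021552-148021711 (minus) for ORC4.

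Over the whole set, replication genes were a little lower after 8 h and far lower after 24 h. After 8 h, 31 of 50 passed the test as lower, 1 as higher and 18 did not pass, where 11.0% of all genes were called lower and 8.69% higher. After 24 h, 49 of 50 were lower than in untreated cells, 0 were higher and 1 did not pass, against 20.9% of all genes called lower and 19.5% higher. Between the times, 47 of 50 were lower at 24 h than at 8 h and 0 higher, against 13.7% and 14.6% of all genes. A gene passed when the limma model over all 14 arrays gave a Benjamini-Hochberg adjusted p below 0.05 over 11963 genes. The model held no block for run, although arrays of the same run were correlated, so its p-values leave out that pairing. The median log2 fold change of the 50 genes was -0.41 at 8 h, -2.03 at 24 h and -1.57 between 24 h and 8 h, where the median of all genes was -0.02, -0.02 and 0.00. No test of the list against other genes was made.

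On single arrays the same was seen. The median difference of the 50 genes from the untreated mean was -0.12 to 0.07 over the 4 untreated arrays, -0.49 to -0.32 over the 5 arrays at 8 h and -2.04 to -1.89 over the 5 arrays at 24 h. The arrays of the groups did not overlap, with lower values in the treated cells, for 30 of 50 genes at 8 h (10.4% of all genes), 48 at 24 h (18.1%) and 47 between 24 h and 8 h (10.9%). Within runs, 49 genes were lower at 24 h than in the untreated array of all 4 runs that had one, and the 1 other, ORC4, was higher in all 4. At 8 h, 40 genes were lower in all 4 runs. The median over the 50 genes within a run lay between -0.42 and -0.33 at 8 h, between -2.09 and -1.76 at 24 h, and between -1.67 and -1.49 for 24 h against 8 h.

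**Figure D1:**
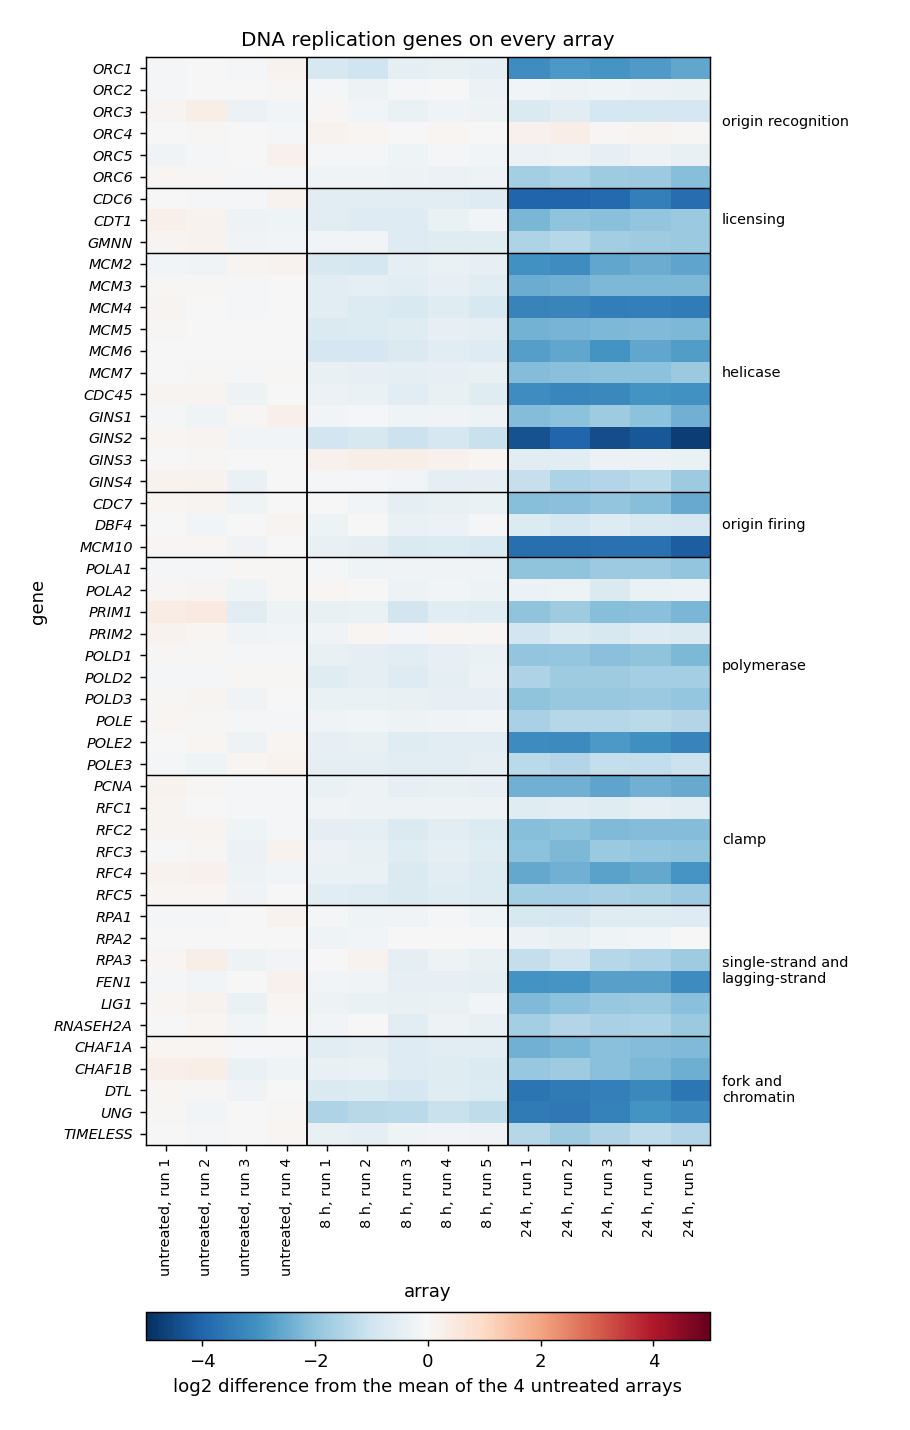
Log2 difference of each of 50 replication genes (rows, by subgroup) from its mean over the 4 untreated arrays, on each of 14 arrays (columns: untreated, 8 h, 24 h, in run order). The 24 h columns are blue in nearly every row, with ORC4, ORC2 and RPA2 the palest, and the 8 h columns are pale blue with GINS3 pale red.

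Replication genes made up much of the far end of the 24 h falls. Of 418 genes that were below -1 at 24 h against untreated cells, 39 were of these 50. Below -2 lay 65 genes, 27 of them replication genes, and below -3 lay 10, of which 8 were GINS2, MCM10, CDC6, MCM4, DTL, UNG, CDC45 and POLE2. At 8 h a single one of the 50 genes, UNG, lay below -1, among 70 genes of the array. Between 8 h and 24 h, 3 genes of the whole array fell by more than 3 on the log2 scale, and these were GINS2, CDC6 and MCM10. A 24 h mean below the median of every 24 h array was found for 7 of the genes (ORC1, CDC6, CDC45, GINS4, MCM10, POLE2 and CHAF1B). None lay below it at 8 h or in untreated cells. The deposited values carry no detection calls, so how far background signal limits these lowest levels was not tested.

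Origin recognition genes fell least as a group, and unevenly. At 8 h, 1 of 6 was lower (median -0.15), and at 24 h 5 of 6 were (median -0.56). For this and each later subgroup, 11.0% of all genes were called lower at 8 h and 20.9% at 24 h. The share of all genes called higher at 8 h was 8.69%. ORC1, the largest ATPase subunit and in human cells the one that comes and goes with the cell cycle, read 8.30, 8.34, 8.29 and 8.53 on the untreated arrays in run order, 7.56, 7.38, 7.87, 8.01 and 7.89 after 8 h and 5.25, 5.48, 5.42, 5.52 and 5.77 after 24 h. The 3 groups stood apart with no overlap, and the 8 h arrays of runs 1 and 2 were the lowest of that time. ORC1 changed by -0.62 ± 0.12 (SE; adjusted p = 0.00155) at 8 h and by -2.88 ± 0.12 (adjusted p = 2e-11) at 24 h, when it stood at 13.6% of the untreated level on the linear scale.

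ORC4, another ATPase subunit of the same complex, did not pass the test at any time. It read 8.23, 8.29, 8.22 and 8.15 on the untreated arrays, 8.38, 8.33, 8.25, 8.31 and 8.20 after 8 h and 8.44, 8.57, 8.26, 8.36 and 8.28 after 24 h. All 3 groups overlapped, and runs 1 and 2 gave the highest 24 h values. The 24 h difference was 0.16 ± 0.07 (adjusted p = 0.0729), and with the run as a replicate block ORC4 passed as higher, at 0.19 (adjusted p = 0.0113). It also passed without the 24 h array of run 3 (adjusted p = 0.0425) or run 5 (0.0480).

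The other origin recognition subunits lay between these. ORC6, the smallest and least related subunit, was at -1.80 ± 0.09 after 24 h (adjusted p = 1.38e-10) and -0.23 ± 0.09 after 8 h (adjusted p = 0.0928). ORC3, ORC5 and ORC2, members of the stable core of the complex, were at -0.78, -0.33 and -0.25 after 24 h, all of which passed, and at -0.16, -0.12 and -0.15 after 8 h, none of which did. ORC2 and ORC5 no longer passed at 24 h in the arrays of runs 1 and 2 alone, where they were at -0.16 and -0.17.

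The 3 licensing genes were lower at both times, with medians of -0.45 at 8 h and -2.04 at 24 h. CDC6, the loader of the MCM ring, read 8.89, 8.84, 8.83 and 9.07 in untreated cells, 8.33, 8.36, 8.33, 8.39 and 8.27 after 8 h and 4.94, 4.96, 5.02, 5.48 and 5.09 after 24 h. No array of one group reached another, and the 24 h array of run 4 was the highest of its time. The change was -0.57 ± 0.09 at 8 h (adjusted p = 0.000346) and -3.81 ± 0.09 at 24 h (adjusted p = 4.47e-14), which left 7.14% of the untreated level.

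GMNN, the inhibitor of licensing, fell alongside the loaders it opposes. Its values were 11.41, 11.45, 11.10 and 11.14 in untreated cells, 11.13, 11.14, 10.62, 10.66 and 10.66 after 8 h and 9.75, 9.84, 9.53, 9.49 and 9.41 after 24 h. Runs 1 and 2 were higher than the later runs at every time, so that the 8 h and untreated arrays overlapped across runs while in each of the 4 runs with an untreated array the 8 h array was below it. GMNN changed by -0.43 ± 0.13 at 8 h (adjusted p = 0.0264) and by -1.67 ± 0.13 at 24 h (adjusted p = 2.58e-08). CDT1, the partner of CDC6, changed by -0.45 ± 0.13 (adjusted p = 0.0208) and -2.04 ± 0.13 (adjusted p = 2.41e-09). Its 8 h change was -0.13 (adjusted p = 0.555) in runs 3 to 5 alone, and it did not pass without the 8 h array of run 3 (adjusted p = 0.0553) or the untreated array of run 1 (0.0833) or 2 (0.0746). The 8 h call of GMNN was lost without any one of the 8 h arrays of runs 3 to 5 or the untreated arrays of runs 1 and 2 (adjusted p = 0.0667 to 0.0911).

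Helicase genes showed the lowest 24 h median of the 8 subgroups, -2.31, with 11 of 11 lower. At 8 h, 8 of 11 were lower and 1 was higher, with a median of -0.51. The 6 genes of the MCM ring moved as a block: at 8 h they lay between -0.71 (MCM6) and -0.41 (MCM7), and at 24 h between -3.40 (MCM4) and -2.04 (MCM7). All 6 passed at both times and none of their arrays overlapped with untreated cells. MCM2, MCM3 and MCM5 were at -0.58, -0.51 and -0.58 after 8 h and at -2.76, -2.31 and -2.27 after 24 h. MCM4 was read by 4 probe sets, which gave 24 h changes of -3.04 to -3.88. CDC45, the factor that couples the ring to GINS, was at -0.44 ± 0.10 (adjusted p = 0.00356) and -3.12 ± 0.10 (adjusted p = 3.93e-13).

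GINS genes spread more widely than any other complex here, although their 4 products form 1 stable tetramer. GINS2 had the largest 24 h fall of all 11963 genes. Its values were 11.12, 11.17, 10.90 and 10.90 in untreated cells, 10.08, 10.24, 9.94, 10.17 and 9.92 after 8 h and 6.68, 7.04, 6.59, 6.77 and 6.31 after 24 h. The 3 groups did not overlap. It changed by -0.96 ± 0.12 at 8 h (adjusted p = 2.13e-05) and by -4.35 ± 0.12 at 24 h (adjusted p = 1.55e-13), to 51.6% and then 4.92% of the untreated level.

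GINS3 was the 1 gene of the 50 called higher at any time. It read 9.13, 9.19, 9.12 and 9.17 in untreated cells, 9.38, 9.44, 9.45, 9.36 and 9.24 after 8 h and 8.60, 8.60, 8.85, 8.86 and 8.82 after 24 h. Every 8 h array was above every untreated array, and every 24 h array was below them. The changes were 0.22 ± 0.07 at 8 h (adjusted p = 0.0320), -0.41 ± 0.07 at 24 h (adjusted p = 0.000145) and -0.63 ± 0.07 for 24 h against 8 h (adjusted p = 2.28e-06). Both of its probe sets had a positive 8 h difference, 0.23 and 0.21, though neither passed among probe sets (adjusted p = 0.0587 and 0.0506). The 8 h call is weak: its adjusted p ran from 0.0208 to 0.0792 with 1 array left out. The call was lost without any one untreated array or any one 8 h array other than that of run 5. GINS1 and GINS4 did not pass at 8 h (-0.18 and -0.25) and were at -2.09 and -1.47 after 24 h.

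**Figure D2:**
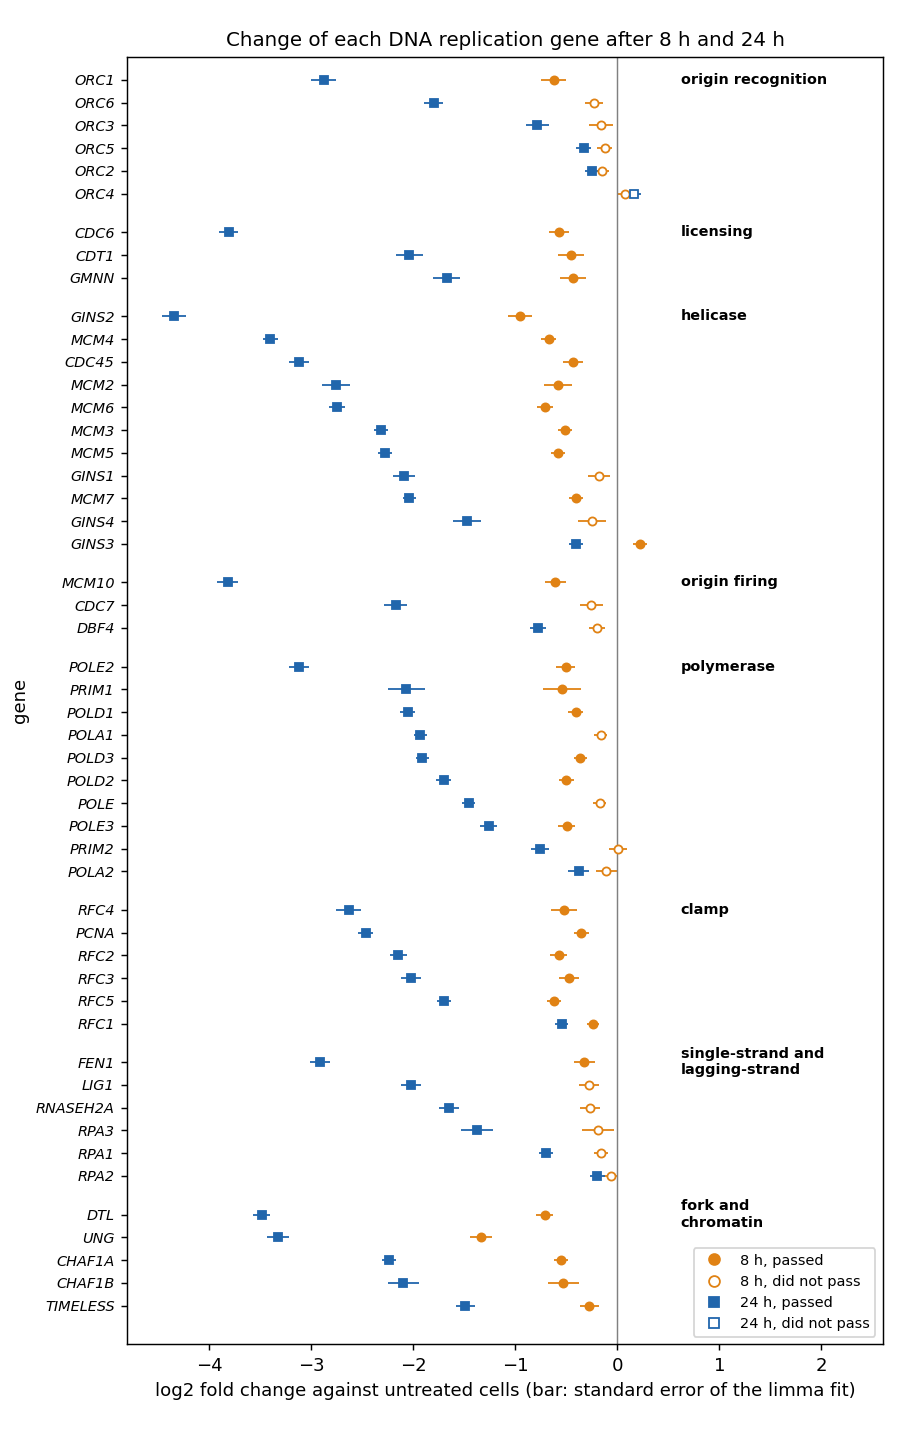
Log2 fold change against untreated cells after 8 h (orange circles) and 24 h (blue squares) for each of the 50 genes, by subgroup, with standard errors of the limma fit and open symbols for genes that did not pass. The 24 h falls run from -4.35 for GINS2 to -0.20 for RPA2, with ORC4 to the right of 0, and GINS3 is the filled 8 h symbol to the right of 0.

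A group of 3 genes acts when licensed origins fire. MCM10, a helicase cofactor of origin firing, read 9.83, 9.83, 9.53 and 9.69 in untreated cells, 9.34, 9.27, 8.98, 9.03 and 8.95 after 8 h and between 5.96 and 6.01 in runs 1 to 4 and 5.59 in run 5 after 24 h. Groups did not overlap, and the 24 h array of run 5 was the lowest. MCM10 changed by -0.61 ± 0.10 (adjusted p = 0.00052) and -3.82 ± 0.10 (adjusted p = 1.67e-13).

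The kinase CDC7 and its activator DBF4 did not fall to the same extent. DBF4 read 11.41, 11.28, 11.42 and 11.58 in untreated cells, 11.17, 11.42, 11.10, 11.12 and 11.31 after 8 h and 10.72, 10.54, 10.77, 10.62 and 10.56 after 24 h. Untreated and 8 h arrays overlapped and the 24 h arrays were below both. DBF4 was at -0.20 ± 0.08 after 8 h (adjusted p = 0.102) and at -0.78 ± 0.08 after 24 h (adjusted p = 6.6e-07). CDC7 was at -0.25 ± 0.11 (adjusted p = 0.148) and -2.17 ± 0.11 (adjusted p = 2.81e-10). The difference between the 2 partners was seen in the values and not tested.

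Polymerase genes were lower in 6 of 10 cases at 8 h (median -0.39) and in 10 of 10 at 24 h (median -1.81). POLE2, the second subunit of the leading-strand polymerase epsilon, read 9.17, 9.23, 8.89 and 9.23 in untreated cells, 8.70, 8.75, 8.51, 8.59 and 8.56 after 8 h and 5.98, 5.95, 6.28, 6.06 and 5.79 after 24 h. The groups were separate at both steps. Its changes were -0.51 ± 0.10 (adjusted p = 0.00108) and -3.12 ± 0.10 (adjusted p = 3.93e-13). The other measured subunits of this enzyme fell less: POLE, the catalytic subunit, was at -0.17 (adjusted p = 0.0646) and -1.46, and POLE3, a histone-fold subunit shared with a chromatin remodeler, at -0.50 and -1.26.

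Polymerase alpha-primase, which makes the RNA-DNA primers, held both large and small falls. POLA2, its regulatory subunit, read 8.65, 8.71, 8.37 and 8.63 in untreated cells, 8.68, 8.57, 8.36, 8.44 and 8.35 after 8 h and 8.30, 8.35, 7.88, 8.26 and 8.29 after 24 h. The 8 h arrays overlapped with the untreated ones, and the run 3 arrays were low among the untreated and 24 h arrays. The 24 h arrays lay below both, although the highest of them (8.347) and the lowest 8 h array (8.353) were almost level. POLA2 was at -0.11 ± 0.10 after 8 h (adjusted p = 0.559) and -0.38 ± 0.10 after 24 h (adjusted p = 0.00698). Its fall between 8 h and 24 h, -0.27 (adjusted p = 0.0497), was no longer called without the 24 h array of run 3, at -0.18 (adjusted p = 0.134), nor without most other single arrays.

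The catalytic partner POLA1 was at -0.16 ± 0.06 after 8 h (adjusted p = 0.0758; 0.0487 with the run as a replicate block) and at -1.93 ± 0.06 after 24 h (adjusted p = 6.12e-13). Primase splits the same way. PRIM1, its catalytic subunit, was at -0.54 ± 0.18 after 8 h (adjusted p = 0.0497) and -2.07 ± 0.18 after 24 h (adjusted p = 1.19e-07), with untreated arrays as far apart as 9.97 in run 3 and 11.00 in run 2. The 8 h change was -0.25 (adjusted p = 0.211) in runs 3 to 5 alone, -0.39 (adjusted p = 0.184) without the untreated array of run 2, not called without most other single arrays, and -0.51 (adjusted p = 0.00521) with the run as a replicate block. PRIM2, the large primase subunit, was at 0.01 ± 0.09 after 8 h and -0.76 ± 0.09 after 24 h (adjusted p = 2.43e-06).

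Polymerase delta, the lagging-strand enzyme, fell evenly in the subunits of the set. POLD1, the catalytic subunit, was at -0.41 after 8 h and -2.05 after 24 h. POLD2 was at -0.50 and -1.70, POLD3 at -0.36 and -1.91, and all 3 passed at both times without overlap between arrays. POLD4, the smallest subunit of the enzyme and outside the 50 genes, rose by 0.64 ± 0.11 at 8 h (adjusted p = 0.000654) and by 0.93 ± 0.11 at 24 h (adjusted p = 4.64e-06), with 8.13 ± 0.10 in untreated cells (SD, n = 4), 8.76 ± 0.23 after 8 h and 9.06 ± 0.18 after 24 h (SD, n = 5 each).

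**Figure D3:**
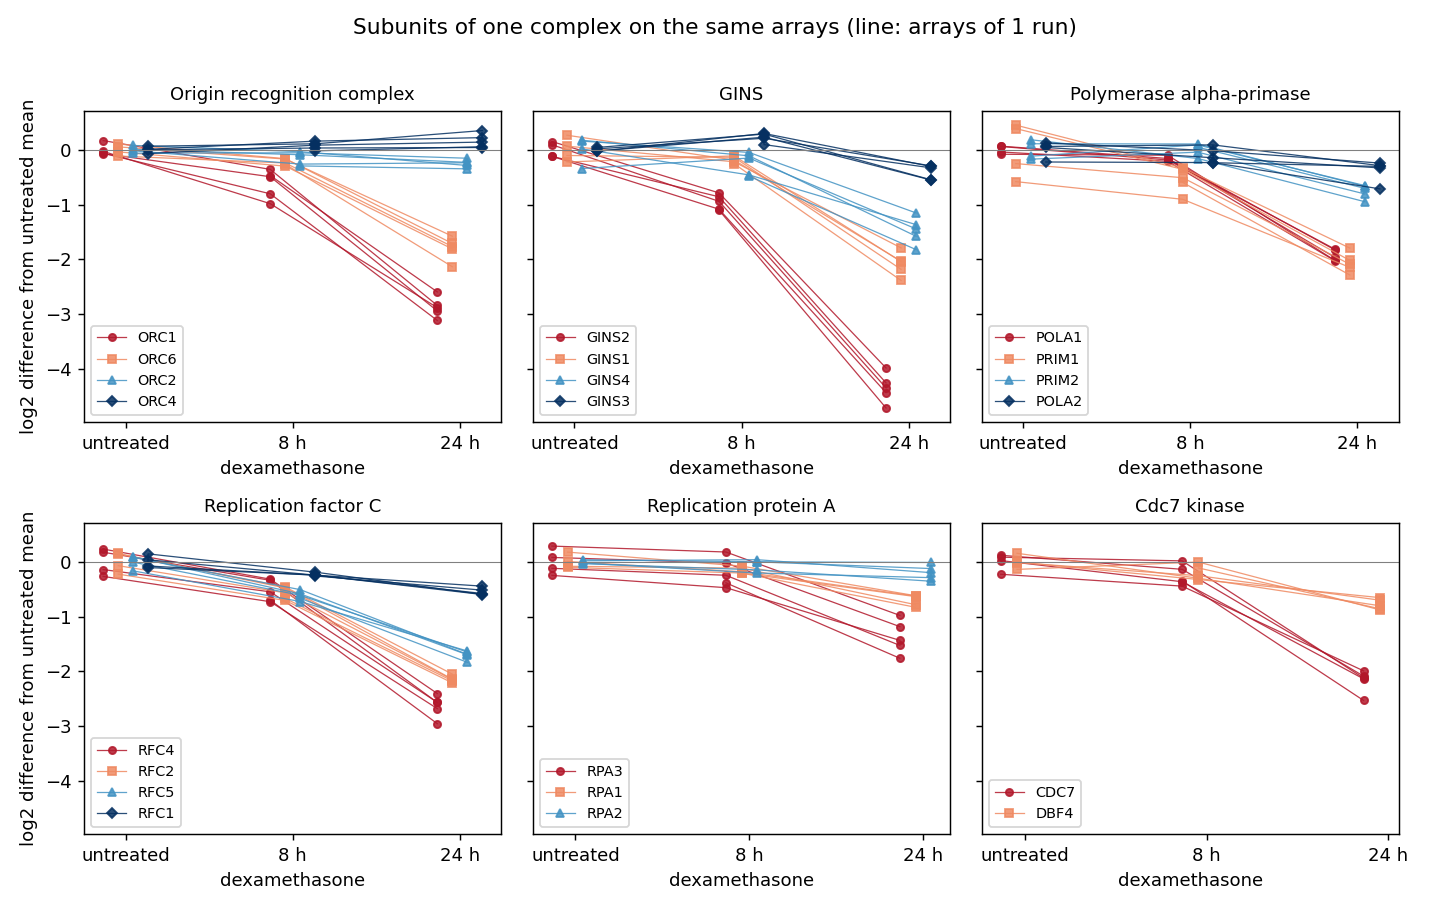
Log2 difference from the untreated mean on every array for subunits of 6 complexes, with arrays of 1 run joined by a line (run 5 has no untreated array). At 24 h the lines of ORC1, GINS2, POLA1, PRIM1, RFC4 and CDC7 end far below those of ORC4, GINS3, POLA2, RFC1 and DBF4 of the same complexes.

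The clamp and its loader were lower at both times in 6 of 6 genes, with medians of -0.50 at 8 h and -2.08 at 24 h. RFC4, a small ATPase subunit of the loader, read 10.87, 10.93, 10.43 and 10.55 in untreated cells, 10.36, 10.38, 9.97, 10.15 and 10.00 after 8 h and 8.13, 8.29, 8.02, 8.13 and 7.74 after 24 h. Groups did not overlap, although the lowest untreated array and the highest 8 h arrays were close. RFC4 changed by -0.53 ± 0.13 (adjusted p = 0.00715) and -2.63 ± 0.13 (adjusted p = 9.26e-11).

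RFC1, the large subunit, read 7.93, 7.82, 7.68 and 7.71 in untreated cells, 7.60, 7.55, 7.55, 7.55 and 7.53 after 8 h and 7.19, 7.21, 7.19, 7.34 and 7.27 after 24 h. The order of the groups was the same and they did not overlap, with steps a fraction of those of RFC4. RFC1 changed by -0.24 ± 0.06 (adjusted p = 0.0100) and -0.55 ± 0.06 (adjusted p = 1.4e-06). This mean holds a dim probe set that stayed at 0.04 at 24 h, whereas the other 2 gave -0.83 and -0.85. The 8 h change of RFC1 was -0.16 (adjusted p = 0.118) in runs 3 to 5 alone.

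PCNA itself, the sliding clamp, was at -0.35 ± 0.07 after 8 h (adjusted p = 0.00203) and -2.47 ± 0.07 after 24 h (adjusted p = 2.62e-13), or 18.1% of the untreated level. RFC2, RFC3 and RFC5, further small subunits, were at -0.58, -0.48 and -0.62 after 8 h and -2.14, -2.02 and -1.70 after 24 h. RFC5 is an average of unlike probe sets: 2 of 3 gave -2.42 and -2.46 at 24 h and the other -0.22 (adjusted p = 0.133 among probe sets).

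Genes of single-strand binding and lagging-strand processing passed mostly at 24 h. At 8 h, 1 of 6 passed as lower (median -0.23), and at 24 h 6 of 6 did (median -1.51), against 11.0% and 20.9% of all genes. FEN1, the flap nuclease that trims Okazaki fragments, was the one that passed early. It read 10.55, 10.49, 10.59 and 10.82 in untreated cells, 10.45, 10.44, 10.21, 10.22 and 10.11 after 8 h and 7.62, 7.65, 7.89, 7.88 and 7.45 after 24 h. Its 8 h arrays were below the untreated ones by a margin that is small in runs 1 and 2, and the 24 h arrays were far below. FEN1 changed by -0.32 ± 0.10 (adjusted p = 0.0346) and -2.91 ± 0.10 (adjusted p = 1.91e-12). The 8 h change was -0.07 (adjusted p = 0.529) in runs 1 and 2 alone, and it was not called without the 8 h array of run 3, 4 or 5 or the untreated array of run 1, 3 or 4 (adjusted p = 0.0526 to 0.118).

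RPA2, the middle subunit of the trimer that coats single-stranded DNA, read 10.27, 10.25, 10.31 and 10.33 in untreated cells, 10.08, 10.14, 10.33, 10.29 and 10.29 after 8 h and 10.00, 9.93, 10.09, 10.17 and 10.28 after 24 h. All groups overlapped, since the 24 h array of run 5 reached the untreated values. RPA2 was at -0.06 ± 0.07 after 8 h (adjusted p = 0.661) and -0.20 ± 0.07 after 24 h (adjusted p = 0.0443), and the 24 h call was lost without any one of several arrays (adjusted p up to 0.110) and in runs 3 to 5 alone, at -0.14 (adjusted p = 0.144).

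The other RPA subunits fell more. RPA1, the large DNA-binding subunit, was at -0.70 ± 0.07 after 24 h (adjusted p = 4.54e-07), and RPA3, the small one, at -1.38 ± 0.16 (adjusted p = 2.66e-06). At 8 h they were at -0.16 and -0.19 and did not pass. LIG1, the ligase that seals Okazaki fragments, was at -0.28 (adjusted p = 0.0579) and -2.02. RNASEH2A, the catalytic subunit of the RNase H2 that removes ribonucleotides from DNA, was at -0.27 (adjusted p = 0.069; 0.0215 with the run as a replicate block) and -1.65.

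Genes of the fork and of new chromatin were lower at both times in 5 of 5 cases, with medians of -0.55 at 8 h and -2.24 at 24 h. DTL, the adaptor that targets CDT1 for degradation on PCNA-bound chromatin, read 11.36, 11.35, 11.12 and 11.28 in untreated cells, 10.55, 10.60, 10.43, 10.65 and 10.60 after 8 h and 7.64, 7.75, 7.87, 8.04 and 7.66 after 24 h. No overlap was seen between groups. DTL changed by -0.71 ± 0.08 (adjusted p = 1.25e-05) and -3.48 ± 0.08 (adjusted p = 2.76e-14).

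TIMELESS, a component of the fork protection complex, read 7.69, 7.55, 7.64 and 7.78 in untreated cells, 7.31, 7.20, 7.43, 7.54 and 7.48 after 8 h and 6.25, 5.89, 6.16, 6.38 and 6.18 after 24 h. The groups did not overlap, although the nearest 8 h and untreated arrays were almost level. TIMELESS changed by -0.27 ± 0.09 (adjusted p = 0.0496) and -1.49 ± 0.09 (adjusted p = 1.81e-09). Of its 2 probe sets, a dim one (5.51 in untreated cells) changed by -0.97 at 24 h, whereas the other (9.82 in untreated cells) gave -2.01. By the brighter probe set alone its 24 h fall was still the smallest of this subgroup, next to CHAF1B at -2.10. The dim probe set thus bears on the size of the fall and not on its place. The 8 h call of TIMELESS did not hold without most single arrays (adjusted p up to 0.135).

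UNG, the glycosylase that removes uracil from DNA, had the largest 8 h fall of the 50 genes. It was at -1.33 ± 0.11 after 8 h (adjusted p = 2.2e-07) and -3.33 ± 0.11 after 24 h (adjusted p = 8.53e-13), to 39.7% and 9.98% of the untreated level. Its 8 h change within runs lay between -1.58 and -1.20. CHAF1A and CHAF1B, subunits of the factor that deposits histones behind the fork, were at -0.55 and -0.53 after 8 h and -2.24 and -2.10 after 24 h. The 8 h call of CHAF1B (adjusted p = 0.0194) was lost without the untreated array of run 1 (adjusted p = 0.0739) or 2 (adjusted p = 0.0773).

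Beyond the 50 genes, a further list of replication factors was measured in 40 of 50 genes. It was lower for 11 and higher for 4 at 8 h (median -0.12), against 11.0% and 8.69% of all genes. At 24 h it was lower for 27 and higher for 3 (median -0.72), against 20.9% and 19.5% of all genes. WDHD1, which ties polymerase alpha to the helicase, was at -0.60 and -2.99. CCNE1, a cyclin that drives S phase entry, was at -0.16 (adjusted p = 0.258) and -2.40. The other E-type cyclin, CCNE2, did not fall with it against untreated cells. It was called higher at 8 h, at 0.57 (adjusted p = 0.000986), and did not pass at 24 h, at 0.05 (adjusted p = 0.772). Higher at 24 h were POLD4, POLH, a translesion polymerase, at 0.50 (adjusted p = 0.0135), and FZR1, an activator of the ubiquitin ligase active in G1, at 0.41 (adjusted p = 1.89e-05). The 24 h and untreated arrays of POLH overlapped.

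Genes of nucleotide synthesis, which feed replication, were lower in 10 of 19 cases at 8 h (median -0.26), against 11.0% of all genes. At 24 h, 17 of 19 were lower (median -1.12), against 20.9% of all genes. TK1, thymidine kinase, was at -2.75 and MTHFD1, an enzyme of folate one-carbon metabolism, at -2.48 after 24 h. Of 24 mitotic genes, 0 were lower and 3 higher at 8 h (median 0.18), against 11.0% and 8.69% of all genes. The 3 were MKI67, CENPE and KIF11, and the 8 h and untreated arrays overlapped for CENPE and KIF11. At 24 h, 8 were lower and 0 higher (median -0.10), against 20.9% and 19.5% of all genes. Among the 8 were the mitotic kinases AURKB at -0.71 and TTK at -0.58. Relative to 8 h, 14 of 24 mitotic genes were lower at 24 h (median -0.29), against 13.7% of all genes. The differences between these lists and the replication genes were not tested.

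**Figure D4:**
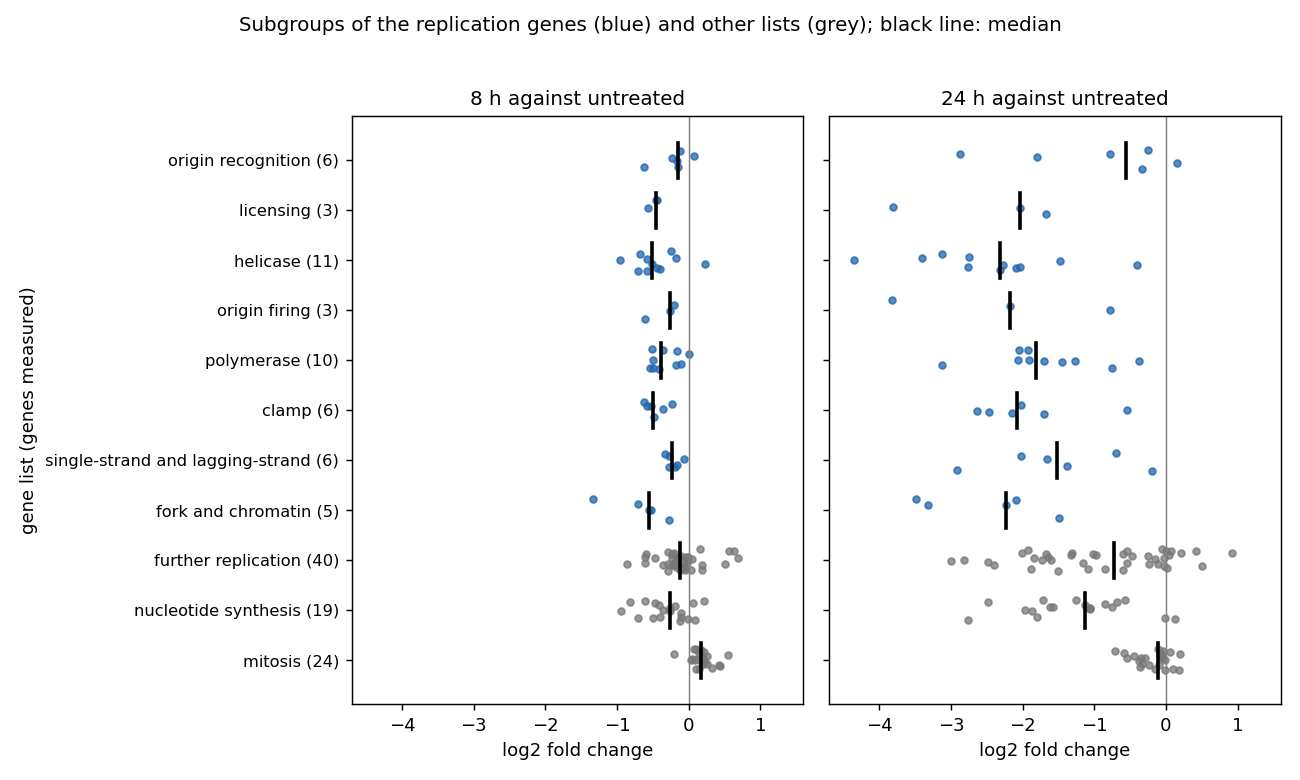
Log2 fold change of each gene at 8 h (left) and 24 h (right) against untreated cells, for the 8 subgroups of the 50 replication genes (blue) and 3 other lists (grey), with black lines at the medians. Subgroup medians at 24 h run from -2.31 (helicase) to -0.56 (origin recognition), against -0.10 for the mitosis list.

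What the promoters share was read from RefSeq windows of 250 bases before to 50 after each start, which were held for 44 of the 50 genes and not for MCM4, MCM5, GINS4, POLD3, RPA2 and RPA3. Shares were counted over genes, and a gene with several starts counted when any of its windows matched. E2F letters stood in a promoter of 21 of 44 genes (47.7%), against 6.08% of 9563 array genes with a promoter. Of all 27305 genes with a promoter, 3.99% had them. NF-Y letters were in 59.1%, against 44.2% and 39.7%. Letters of the CHR element (TTTGAA or TTCGAA), known from mitotic genes, were in 4 of 44 (9.09%), against 17.2% and 19.5%, and the core of the glucocorticoid response element (ACANNNTGT) was in 0 of 44, against 5.30% and 6.54%. All motifs were searched on both strands and none of the 4 contains another. A match is a run of letters and not a bound site, and base composition was not matched between the groups of promoters.

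Among the replication genes, the 24 h changes with and without E2F letters overlapped widely. The 24 h median was -2.09 over the 21 genes with a match and -1.70 over the 23 without. MCM6, whose window shows E2F letters at 2 places, was at -2.75, and GINS2 and DTL with E2F letters on opposite strands at -4.35 and -3.48. Without a match, MCM10, CDC45, FEN1 and ORC1 were at -3.82, -3.12, -2.91 and -2.88. With one, POLA2 and GINS3 were at -0.38 and -0.41, the smallest falls of the matched genes.

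**Figure D5:**
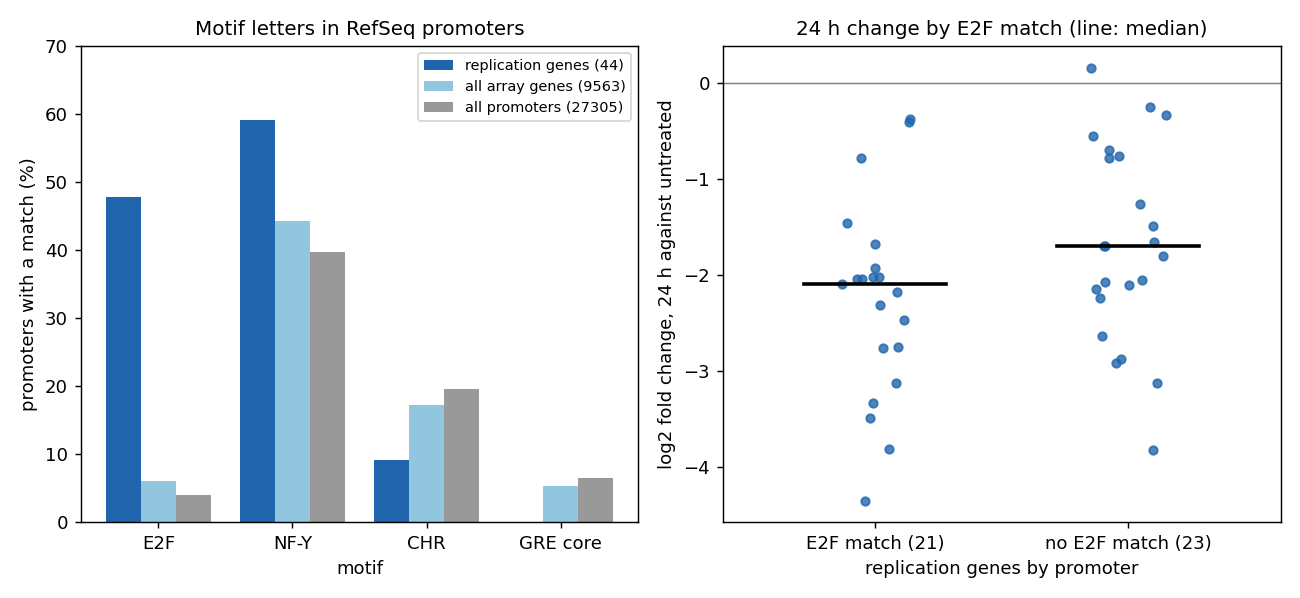
Left, share of genes with each motif in any of their promoters, in percent. Bars are 44 replication genes, 9563 array genes and all 27305 RefSeq genes with a promoter (labelled all promoters). Right, log2 fold change at 24 h against untreated cells of the 44 genes with (21) and without (23) E2F letters, with medians of -2.09 and -1.70 and wide overlap.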

How the data were processed

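Total RNA of RS4;11 cells was measured on 14 Affymetrix arrays; sample labels gave group, replicate, run and day. The authors processed the arrays with RMA in affy (version not given in the sources used here), left out 1 untreated array on quality control and deposited log2 values for 22277 probe sets. These carry no count of molecules, and the number of arrays limits the precision.

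GEO's platform annotation gave 1 gene to 19070 probe sets, several to 1043 and none to 2164. No symbol changed through current gene identifiers. Probe sets with 1 gene were averaged to 11963 genes. No variance filter was applied, since each of the 50 genes had to be accounted for; the filter named in the methods was an alternative. The fit (lmFit and eBayes, limma 3.58.1, R 4.3.3) used all 14 arrays without a block, with Benjamini-Hochberg adjustment over all genes of a comparison. The calculation was tested on simulated data with independent noise on each array and no run effect. That test therefore does not cover the pairing of arrays by run.

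The 50 genes, subgroups and other lists were chosen with earlier results of these data known. Values in every array are given for the largest and smallest 24 h change of each subgroup and for genes called higher; which partners of a complex were set side by side was chosen after the values were seen. Of the other lists, the 2 called genes with the smallest adjusted p at 24 h in each direction were named. CCNE2, POLH, MKI67, CENPE and KIF11 lie outside this rule, and their values were known when they were named.

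The sample labels show that title numbers 4 and 5 of the 8 h and 24 h arrays are runs 5 and 4, and that run 5 has no untreated array. Residuals of same-run arrays correlated in all 13 pairs (r = 0.299 to 0.537), and 13 of 14 arrays matched best with their own run, so runs pair the samples. Alternatives were filters on variance and on dim probe sets, the brightest probe set, cyclic loess, a median shift, blocks by run or title number, a random run block, array weights, a trended robust fit, only the groups compared, runs of 1 day, and each array left out in turn. Promoters came from RefSeq.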

Additional observations from a re-analysis of the deposited data

Results flagged for a closer look

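Single arrays that stood apart from the rest of their group were looked for in 150 groups of 4 or 5 values (50 genes at 3 times). A gap rule that picks about 1 group in 20 by chance, 7.5 here, picked 8. After 24 h, CDC6 was 5.48 in run 4 (others 4.94 to 5.09), CDC7 6.92 in run 5 (others 7.32 to 7.46), MCM10 5.59 in run 5 (others 5.96 to 6.01) and POLA2 7.88 in run 3 (others 8.26 to 8.35). After 8 h, POLE3 was 10.32 in run 5 (others 10.26 to 10.27) and RFC1 7.60 in run 1 (others 7.53 to 7.55). In untreated cells, MCM7 was 11.67 in run 3 (others 11.82 to 11.83) and LIG1 9.45 in run 3 (others 9.87 to 9.95). Runs 3 and 5 held 3 of the 8 each.

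GINS3 was the 1 gene called in opposite directions against untreated cells at the 2 times, and its difference between 24 h and 8 h was -0.63 by the limma test given above (lower in 5 of 5 runs).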

How the results depend on the processing

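Of the replication genes called, 24 of 32 at 8 h, 46 of 49 at 24 h and 45 of 47 between 24 h and 8 h kept their call under all 28 alternatives, 14 of which left out 1 array, and no called gene changed sign. The members lower at 8 h against untreated ranged from 27 to 36 under the other alternatives and from 25 to 32 with 1 array left out. With the run as a replicate block, 33 members were lower at 8 h and 49 at 24 h against untreated, and it changed no other call than those of POLA1, RNASEH2A and ORC4 given above. The members lower at 8 h against untreated were 35 with the run as a random block and 36 with the title number as replicate block. Under at least 1 alternative, 8 members without an 8 h call gained one as lower (POLA1, RNASEH2A, CDC7, DBF4, LIG1, ORC6, POLE and RPA1), and 8 lost theirs. The members higher at 8 h against untreated were 0 after the median shift and 0 in days 2 to 4, and 0 to 1 with 1 array left out. The members higher at 24 h against untreated were 1 (ORC4) with either replicate block, with the random block and in day 1, and 0 to 1 with 1 array left out. In days 2 to 4 the median log2 fold change of the members, 8 h against untreated, was -0.36, and the median log2 fold change of the members, 24 h against untreated, was -1.85. The share with CHR letters was 2.27% within 200 bases before the start.

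Changes of sign were confined to 8 h values that never passed. ORC5 was at 0.0082 by its brightest probe set and 0.025 in day 1, and GINS1 at 0.039 in day 1. PRIM2 was at -0.015 after the median shift, -0.0051 with the run and -0.017 with the title number as replicate block, -0.00043 with array weights, -0.17 in day 1 and -0.0035 without run 5, and ran from -0.051 to 0.067 with 1 array left out. The causes were not tested. The variance filter kept 47 of the 50 genes and dropped ORC2, ORC4 and RPA2. Precision against untreated cells rests on 4 arrays, and the signal over background of the lowest 24 h levels is unknown.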

Other observations

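A pair of probe sets annotated to both PRIM2 and PRIM2BP entered no comparison. One read 6.34 ± 0.25 in untreated cells (SD, n = 4), 6.36 ± 0.27 after 8 h and 5.37 ± 0.14 after 24 h (SD, n = 5 each). The other read 4.89 ± 0.14 in untreated cells, 4.69 ± 0.28 after 8 h and 4.53 ± 0.12 after 24 h. Which of the 2 genes these signals come from was not tested.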
